A study of Rattus norvegicus with 8 samples.

Results

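A set of 10 genes that act in the removal of mitochondria by autophagy (mitophagy) or in holding back the growth kinase mTOR were followed in alveolar type II (ATII) cells of the rat lung, the epithelial cells that make surfactant. The genes were Bnip3l, Fundc1, Pink1, Sqstm1, Becn1, Ulk1, Ddit4, Ddit4l, Tsc1 and Tsc2. A gene was taken where the platform annotation gave a probe set that symbol and no other symbol, which held for 9 of the 10 listed genes, each with 1 probe set, out of 18166 genes measured this way. Ddit4l had no such probe set and its signal was not analysed here. The cells were freshly isolated from 4 male Sprague Dawley rats and given either a control adenovirus for green fluorescent protein (AdGFP) or an adenovirus for a mutant, constitutively active HIF1a (AdHIF1a). HIF1a is the subunit of hypoxia-inducible factor that is normally destroyed when oxygen is present. The 8 arrays form 4 pairs, since every rat supplied both wells and was extracted on a separate day, and the effects of rat and day cannot be told apart. All wells had contact with virus for 3 h (multiplicity of infection 20), were plated on a gel of 80% rat tail collagen and 20% Matrigel with 5% rat serum, and were lysed for RNA after 24 h. The species of the HIF1a sequence, the promoter that drives it, the share of cells transduced and the age of the rats are not stated in the labels.

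Mitophagy removes damaged or surplus mitochondria. In one route, receptor proteins of the outer mitochondrial membrane such as BNIP3L (also called NIX) and FUNDC1 bind LC3 on the growing autophagosome, and in another the kinase PINK1 gathers on depolarised mitochondria and starts their tagging with ubiquitin. The protein kinase mTOR, in mTOR complex 1, holds autophagy back and drives protein synthesis, and it is restrained by the TSC1 and TSC2 proteins, which switch off its activator Rheb, and by DDIT4 (REDD1), which acts through them. BNIP3L and DDIT4 are known targets of HIF in many cell types, and the comparison asked how these genes respond in ATII cells when HIF1a is active without low oxygen.

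Signals are log2 values per probe set, and a difference is AdHIF1a minus AdGFP within rats, given with the standard error (SE) of the paired limma fit over 4 rats. A gene was called where its p, adjusted over all 18166 genes by the Benjamini-Hochberg method, was under 0.05. Of the 9 measured genes, 2 rose and 0 fell by this test, against 5.68% of all genes called higher and 7.77% called lower. The 2 genes were Ddit4 (2.70-fold) and Bnip3l (1.60-fold). At an unadjusted p under 0.05, 5 of the 9 genes passed, against 27.7% of all genes, adding Fundc1, Pink1 and Ulk1, each with a negative difference. In 4 of the 9 genes the wells of the 2 viruses did not overlap, 2 with AdHIF1a higher (10.3% of all genes) and 2 with AdHIF1a lower (12.2% of all genes). The median difference was 0.12 over the 9 genes and -0.005 over all genes. The plot of single wells shows all 4 rats for each gene.

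**Figure D1:**
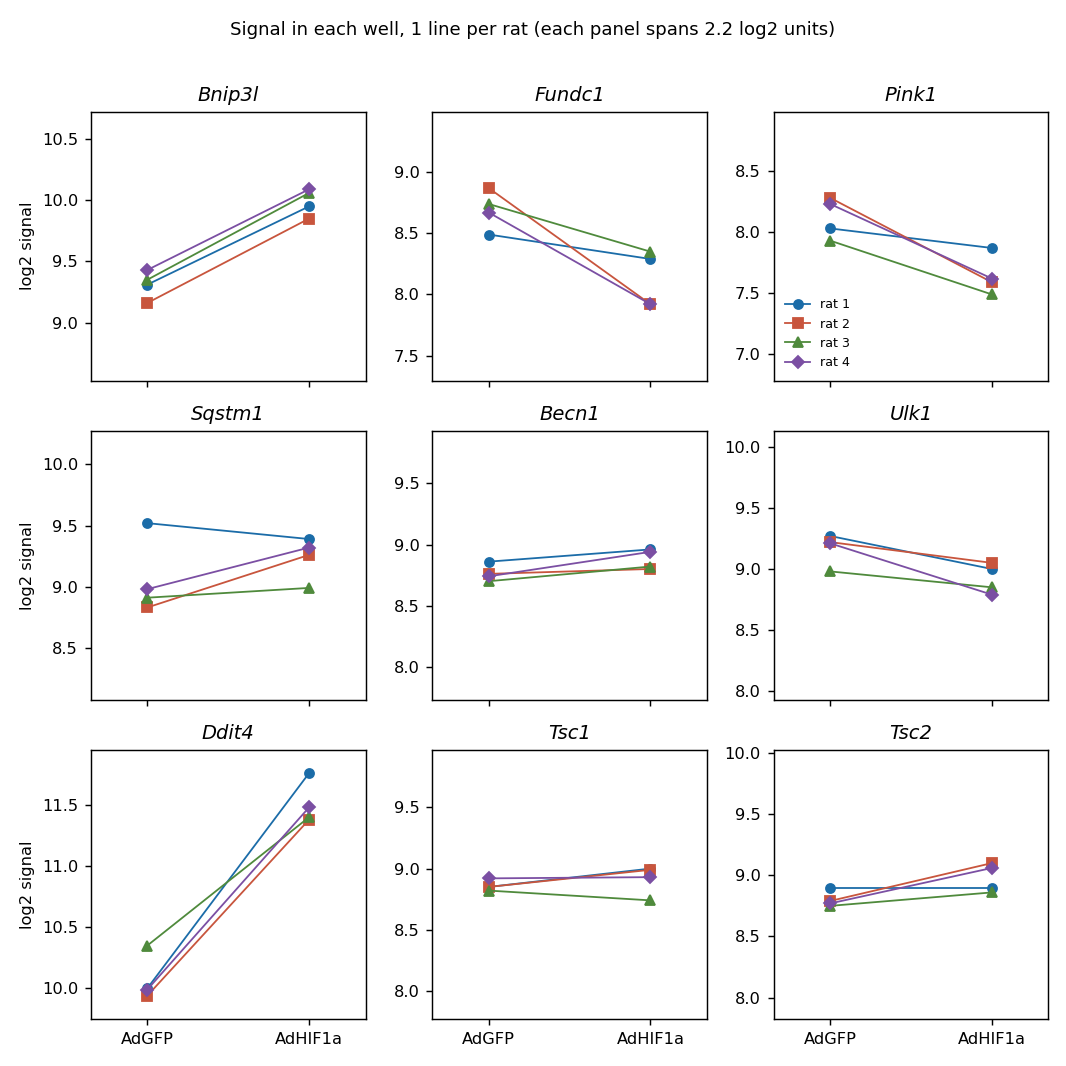
Log2 signal (vertical axes, each spanning the same width) of the 9 measured genes in the AdGFP and AdHIF1a well of each rat, with 1 line per rat. Ddit4 and Bnip3l rise in 4 of 4 rats to levels above all AdGFP wells, Fundc1 and Pink1 lie lower in 4 of 4 rats, and the wells of the other 5 genes overlap.

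Bnip3l, the mitophagy receptor that clears mitochondria from maturing red blood cells in mice, read 9.31, 9.16, 9.35 and 9.43 with AdGFP in rats 1 to 4 and 9.95, 9.85, 10.06 and 10.09 with AdHIF1a. Every AdHIF1a well lay above every AdGFP well, by at least 0.42. The gene rose by 0.68 ± 0.08 (SE, 4 rats), or 1.60-fold with a 95% interval of 1.39 to 1.83 (adjusted p = 0.00743, probe set 17703968). The rise was nearly the same in each animal, at 0.64, 0.69, 0.71 and 0.66 in rats 1 to 4, with an SD of 0.03. Without rat 2 the difference was still 0.67 but the adjusted p was 0.0567, and without any 1 of the other rats the call was kept.

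Fundc1, the other outer-membrane receptor in the set, went the opposite way without passing the test. Its signal was 8.49, 8.87, 8.74 and 8.67 in the AdGFP wells and 8.29, 7.92, 8.35 and 7.92 in the AdHIF1a wells of rats 1 to 4. All AdHIF1a wells lay below all AdGFP wells, by as little as 0.14. The difference was -0.57 ± 0.15 (SE, 4 rats; 95% interval -0.94 to -0.21, adjusted p = 0.0607, probe set 17870802), and was -0.20, -0.95, -0.39 and -0.75 in rats 1 to 4, so that the size varied far more between animals than for Bnip3l (SD 0.34). FUNDC1 is a receptor that is itself switched on under low oxygen by loss of phosphate groups, a step that RNA signals do not show.

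Pink1, the kinase that marks depolarised mitochondria, read 8.03, 8.28, 7.93 and 8.23 with AdGFP and 7.87, 7.59, 7.49 and 7.62 with AdHIF1a in rats 1 to 4. The groups were apart by 0.06 only. The difference was -0.48 ± 0.12 (SE, 4 rats; 95% interval -0.76 to -0.19, adjusted p = 0.0531, probe set 17811729), with -0.16, -0.69, -0.44 and -0.61 in rats 1 to 4. Fundc1 and Pink1 thus had their differences in the same order of rats, smallest in rat 1, then rats 3, 4 and 2. The medians of the arrays differed between the viruses in that order of rats too, by -0.11, 0.09, 0.16 and 0.19 (AdHIF1a minus AdGFP in rats 1, 3, 4 and 2), and the part of this shift in the order was not tested. Whether they pass depended on the processing. Pink1 passed with an adjusted p of 0.0254 without the rat as a block, and of 0.0374 without rat 1, and Fundc1 with 0.0207 and 0.0493. Both missed the threshold after median centring of the arrays, with 0.0755 for Pink1 and 0.0704 for Fundc1, and without rats 2, 3 or 4.

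The alveolar type I markers, genes of the flat cells into which ATII cells can develop, varied between rats in part like Fundc1 and Pink1. Of 10 measured markers 7 were lower and 1, the HIF target Vegfa, was higher by 1.52, and their median differences were -0.71, -1.24, -0.49 and -1.36 in rats 1 to 4, again larger in rats 2 and 4. Their summed signal (on the linear scale) was 16917 to 23336 in the AdGFP wells and 12902 to 16145 in the AdHIF1a wells. Part of the ATII list showed this pattern too. The median differences of the 9 measured ATII markers were -0.31, -0.06, -0.14 and -0.63 in rats 1 to 4. They were smallest in rat 2, so the list as a whole did not share the pattern. Of the 9 markers 2 were called higher and 3 lower, and the 3 called lower had their larger differences in rats 2 and 4. In rats 1 to 4 Lamp3 differed by -0.50, -0.92, -0.61 and -1.09, Napsa by -1.08, -1.65, -1.26 and -2.09, and Lpcat1 by -0.40, -1.07, -0.60 and -1.12. The part of either cell type in the differences of Fundc1 and Pink1 was not tested. In a mixed well, fewer cells of a type and less RNA per cell cannot be told apart.

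Sqstm1 encodes p62, a receptor that ties ubiquitin-tagged cargo to LC3 and is itself consumed by autophagy. Its signal was 9.52, 8.83, 8.91 and 8.98 in the AdGFP wells and 9.39, 9.26, 8.99 and 9.32 in the AdHIF1a wells of rats 1 to 4. The groups overlapped, because the AdGFP well of rat 1 was the highest of all 8. The difference of 0.18 ± 0.12 (SE, 4 rats; adjusted p = 0.415) was -0.13 in rat 1 and 0.43, 0.08 and 0.34 in rats 2 to 4.

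Becn1 and Ulk1 belong to the start of autophagy, Becn1 as a subunit of the lipid kinase complex that marks the forming membrane and Ulk1 as the kinase that mTOR complex 1 inhibits. Becn1 stayed within 8.70 to 8.86 with AdGFP and 8.80 to 8.96 with AdHIF1a, a difference of 0.12 ± 0.08 (SE, 4 rats; 95% interval -0.09 to 0.32, adjusted p = 0.438). The interval leaves room for a rise of up to 1.25-fold. Ulk1 read 9.27, 9.22, 8.98 and 9.21 with AdGFP and 9.0, 9.05, 8.85 and 8.79 with AdHIF1a in rats 1 to 4. It was lower in 4 of 4 rats, by small amounts, at -0.25 ± 0.09 (SE; 95% interval -0.47 to -0.02), and the groups overlapped by 0.07. Its adjusted p was 0.150, and 0.0784 to 0.428 over the alternatives.

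Ddit4, the stress-induced inhibitor of mTOR complex 1, had the largest difference of the set, larger in size than that of 98.6% of all genes. Its signal was 10, 9.94, 10.35 and 9.99 with AdGFP in rats 1 to 4 and 11.76, 11.38, 11.40 and 11.48 with AdHIF1a. The lowest AdHIF1a well lay 1.03 above the highest AdGFP well. The gene rose by 1.44 ± 0.13 (SE, 4 rats), or 2.70-fold with a 95% interval of 2.15 to 3.40 (adjusted p = 0.00435, probe set 17758309). The rise was 1.76, 1.44, 1.05 and 1.49 in rats 1 to 4, smallest in rat 3, whose AdGFP well was the highest of its group. The call of Ddit4 was kept without any 1 of the rats, with differences from 1.33 to 1.56 and an adjusted p of at most 0.0344.

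Tsc1 and Tsc2, the complex through which DDIT4 acts on Rheb, did not pass. Tsc1 lay between 8.82 and 8.92 with AdGFP and between 8.74 and 9.0 with AdHIF1a, a difference of 0.06 ± 0.09 (SE, 4 rats; 95% interval -0.16 to 0.27, adjusted p = 0.751), which turned to -0.028 after median centring. Tsc2, the subunit that acts on Rheb, read 8.90, 8.79, 8.75 and 8.77 with AdGFP and 8.90, 9.10, 8.86 and 9.06 with AdHIF1a in rats 1 to 4. The groups overlapped, and the difference of 0.18 ± 0.09 (SE; 95% interval -0.06 to 0.41, adjusted p = 0.302) was absent in rat 1 and 0.31, 0.11 and 0.29 in rats 2 to 4. The upper bounds are 1.21-fold for Tsc1 and 1.33-fold for Tsc2, below the lower bound of 2.15-fold for Ddit4. The plot of differences sets the 9 genes side by side.

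**Figure D2:**
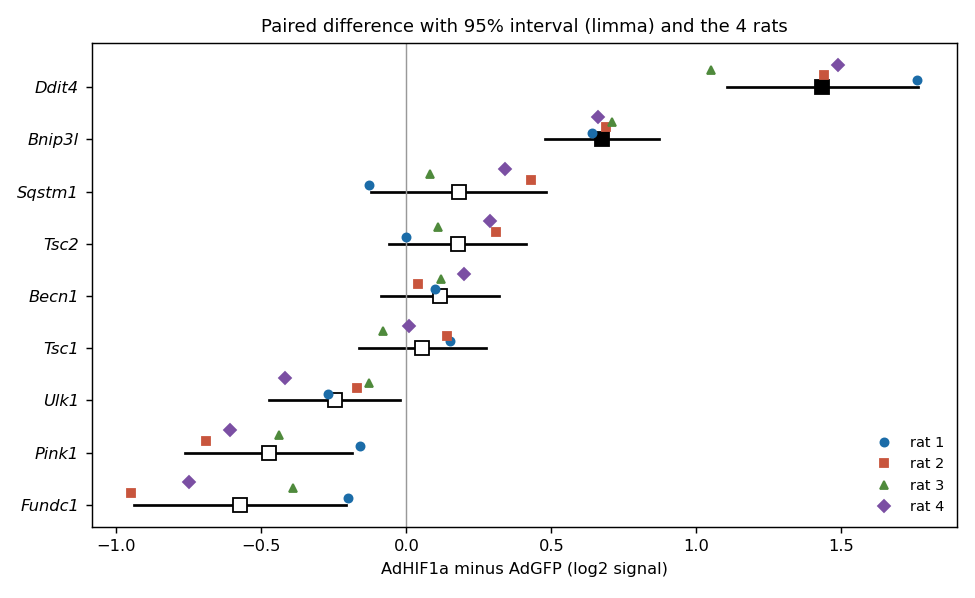
Difference between AdHIF1a and AdGFP in log2 signal (horizontal axis) for the 9 measured genes, as the paired limma estimate (squares, filled where the adjusted p is under 0.05) with its 95% interval (lines) and the 4 rats (coloured points). Ddit4 and Bnip3l stand at 1.44 and 0.68, while Fundc1 and Pink1 stand at -0.57 and -0.48 with intervals that end below 0.

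Rat promoters from RefSeq (GRCr8) were available for 7 of the 10 genes, and their 250 bases before the start were searched on both strands for ACGTG and GCGTG, the core letters of the hypoxia response element that HIF binds. Ddit4, Ddit4l, Pink1 and Tsc2 held at least 1 of them, 4 of 7 against 36.7% of all 33469 promoters (ACGTG in 16.6% and GCGTG in 25.9%), and those of Sqstm1, Ulk1 and Tsc1 held neither. Promoters of Bnip3l, Fundc1 and Becn1 were not used here. Those of 3 genes are shown because their genes differ in response, Ddit4 having risen, Pink1 reading lower without passing and Tsc2 overlapping between viruses. They are written 5′ to 3′ on the strand of the gene, with each core, or its reverse complement, in capitals. The windows are chr20:28437038-28437287 (minus strand) for Ddit4, chr5:155825951-155826200 (minus strand) for Pink1 and chr10:14160240-14160489 (minus strand) for Tsc2.
Ddit4 promoter: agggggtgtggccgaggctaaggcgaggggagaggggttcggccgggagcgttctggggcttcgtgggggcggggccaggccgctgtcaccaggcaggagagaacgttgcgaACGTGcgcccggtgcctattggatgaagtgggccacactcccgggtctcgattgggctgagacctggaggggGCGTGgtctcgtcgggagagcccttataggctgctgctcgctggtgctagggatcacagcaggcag
Pink1 promoter: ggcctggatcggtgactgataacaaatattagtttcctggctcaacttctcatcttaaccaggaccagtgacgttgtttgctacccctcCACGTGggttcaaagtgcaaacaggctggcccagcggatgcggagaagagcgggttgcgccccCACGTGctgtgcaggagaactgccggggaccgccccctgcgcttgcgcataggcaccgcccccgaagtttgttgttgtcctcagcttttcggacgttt
Tsc2 promoter: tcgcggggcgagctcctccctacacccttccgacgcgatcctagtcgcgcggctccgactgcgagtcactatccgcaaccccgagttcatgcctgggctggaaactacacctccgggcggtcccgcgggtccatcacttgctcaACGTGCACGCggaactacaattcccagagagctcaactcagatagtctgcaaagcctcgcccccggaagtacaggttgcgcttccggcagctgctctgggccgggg
Ddit4 held ACGTG starting 138 bases and GCGTG starting 66 bases before the start, both on the strand of the gene. In Pink1 the 4 matches formed 2 copies of CACGTG, which reads the same on both strands and is also the E-box bound by other factors, so each copy counts once per strand; 5.59% of all promoters held CACGTG. In Tsc2 an ACGTG at 106 bases and a GCGTG on the opposite strand at 101 bases lay next to each other. A match is a string of letters and no evidence of binding, and a core can lie outside these windows.

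Genes of the same pathways outside the set were described from 4 lists. Across these lists 20 of 114 measured genes were called, against 13.4% of all genes called in either direction. The calls of 4 of the 20 genes were lost without rat 1, and those of 15 without rat 2, 15 without rat 3 and 15 without rat 4. Calls were lost throughout the series in these fits. All genes called higher fell from 1032 to 775, 315, 517 and 324 without rats 1 to 4. Those called lower fell from 1411 to 1231, 246, 600 and 301. The calls of Hk2, Vdac1, Eif4ebp1, Prkab2 and Sesn3 were kept without any 1 of the rats. The plot of the lists shows every measured gene.

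**Figure D3:**
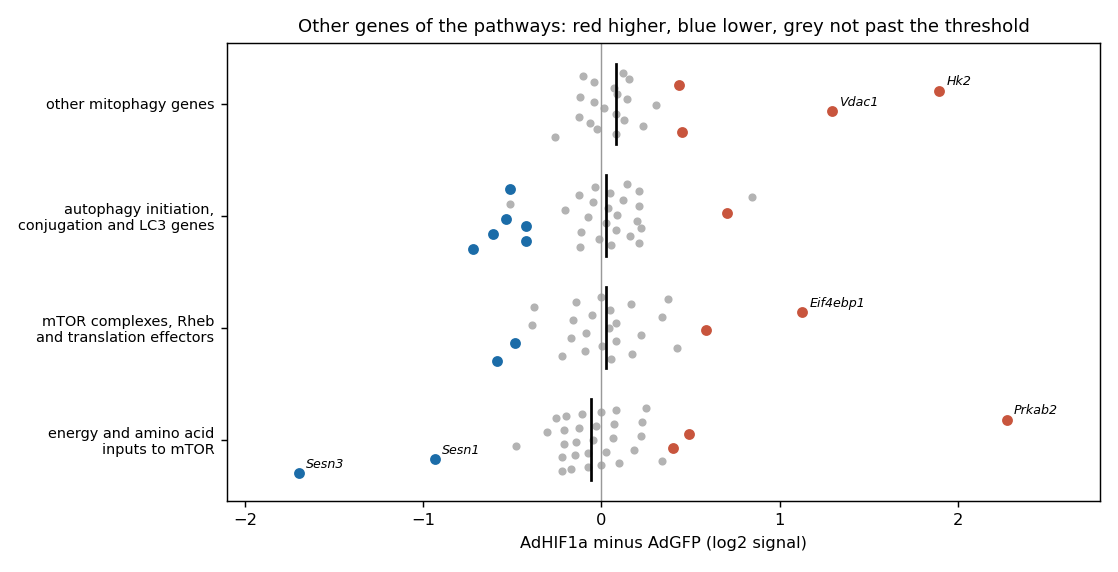
Difference between AdHIF1a and AdGFP in log2 signal (horizontal axis) for each measured gene of the 4 pathway lists, with called genes in red (higher) or blue (lower), the others in grey, and a black line at the median of each list. The medians lie between -0.06 and 0.08, and called genes over 0.8 in size are named.

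Of 23 other measured mitophagy genes 4 rose and 0 fell (17.4% called), with a median difference of 0.08. Hk2, a hexokinase that can sit on the outer mitochondrial membrane, rose by 1.90 ± 0.09 (3.72-fold), and Vdac1, the channel of that membrane, by 1.30 ± 0.10 (2.45-fold) from a level of 11.03 ± 0.09 (SD, 4 rats). Smaller rises were seen for Tbk1, a kinase that phosphorylates autophagy receptors (0.45 ± 0.09), and Dnm1l, the GTPase of mitochondrial fission (0.44 ± 0.08). The autophagy receptor gene Optn differed by 0.09 ± 0.09 (adjusted p = 0.570). Bnip3, the closest relative of Bnip3l, shares its probe set with a pseudogene and was not analysed here.

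Of 31 other measured genes of autophagy initiation, conjugation and the LC3 family 1 rose and 6 fell (22.6% called), with a median difference of 0.03. Those lower were Ulk2, the relative of Ulk1 (-0.54 ± 0.09), Atg10, an enzyme that attaches ATG12 (-0.72 ± 0.11), and Bcl2, the survival protein that binds Beclin 1 (-0.61 ± 0.10). With adjusted p between 0.0294 and 0.0444, Wipi1, a reader of the membrane lipid made by the Beclin 1 complex, fell by 0.42, Gabarapl1, a member of the LC3 family, by 0.51, and Stx17, which fuses autophagosomes with lysosomes, by 0.42; these 3 genes were named after their values were seen. The gene that rose was Atg4c, a protease that processes LC3 family proteins (0.71 ± 0.14), with 1.16 in rat 1 and 0.51 to 0.64 in the others. Of these 7 genes none was called without rat 2, without rat 3 or without rat 4. At an unadjusted p under 0.05 the list held 7, 9 and 7 of its 31 genes in those limma fits, close to the 19.5%, 23.4% and 19.7% of all genes that passed there. Map1lc3b was not analysed here.

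Of 26 measured genes of the mTOR complexes, Rheb and translation effectors 2 rose and 2 fell (15.4% called). Eif4ebp1, the repressor of cap-dependent translation that mTOR complex 1 inactivates, rose by 1.13 ± 0.10 (2.18-fold, adjusted p = 0.00362), at 1.07, 1.34, 0.96 and 1.14 in rats 1 to 4. Irs2, an adaptor of the insulin receptor, rose by 0.59 ± 0.10. Deptor, an inhibitory partner of mTOR, fell by 0.59 ± 0.09, and Pdcd4, a translation inhibitor degraded after mTOR signalling, by 0.49 ± 0.08. The kinase gene Mtor itself differed by -0.16 ± 0.11 (adjusted p = 0.418) and Rptor, which encodes its partner raptor, by 0.05 ± 0.08 (adjusted p = 0.750), or -0.03 after median centring. Rheb was not analysed here.

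Of 34 measured genes that feed energy and amino acid state to mTOR 3 rose and 2 fell (14.7% called), and they included the largest differences of the 4 lists. Prkab2, a subunit of the energy sensor AMPK, rose by 2.28 ± 0.12, from 6.77 ± 0.23 (SD, 4 rats) to 9.05, or 4.84-fold (adjusted p = 0.00109). Sesn3 and Sesn1, members of the sestrin family of mTOR complex 1 inhibitors, fell by 1.70 ± 0.17 (3.24-fold, adjusted p = 0.00484) and 0.94 ± 0.17 (1.91-fold, adjusted p = 0.0237). Both fell most in rats 2 and 4, at -1.74 and -2.24 for Sesn3 and -1.29 in each for Sesn1. In these rats Fundc1, Pink1, the type I markers and the ATII markers called lower also had their largest differences. Rragd, a Rag GTPase of the amino acid signal, rose by 0.49 ± 0.08, and Depdc5, a subunit of the complex that inhibits those GTPases, by 0.40 ± 0.09 (adjusted p = 0.0431, named after its value was seen).

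The labelled cell type was checked against its markers. The surfactant gene Sftpc read 12.34 and the lamellar body gene Lamp3 12.20 on average with AdGFP, and 2 of 9 measured ATII markers were higher and 3 lower with AdHIF1a. With AdGFP the 9 ATII markers averaged 10.32, with Etv5 lowest at 7.325. The 10 type I markers averaged 9.74 in the same wells, with Ager highest at 12.55. These levels therefore do not tell ATII from type I cells. The 7 measured endothelial and 9 lymphocyte markers averaged 4.82 and 4.84 with AdGFP, near the median of all values of 5.10, and 0 of either were called, with 1 of the 16 at an unadjusted p under 0.05 in limma. The macrophage list held the high signal of Lyz2 (12.59), which mouse ATII cells also make, and 1 of its 10 genes was called, Adgre1, which was lower from 4.37. Without passing, Mrc1 differed by -0.82 (adjusted p = 0.0586), Siglec1 by -0.71 (0.0773) and Csf1r by -0.46 (0.0590), each negative in 4 of 4 rats, and Lyz2 by 0.30 (0.135). The others differed less, Cd68 by 0.02, Marco by 0.10, C1qa by 0.04, C1qb by -0.10 and Ptprc by -0.265. The summed signal of the macrophage list, which includes Lyz2, was 6615 to 8218 with AdGFP and 7758 to 9244 with AdHIF1a. Most of this sum is Lyz2, since the next brightest gene, Cd68, read 8.905 with AdGFP. A sum without Lyz2 was not made, so the sum does not describe the rest of the list. Of the 9 fibroblast markers only Fn1 was called, which fell by 1.52 from 11.70, the brightest of the list. The summed signal was 3023 to 4128 with AdGFP and 965 to 2568 with AdHIF1a for all 9, but 264 to 279 and 254 to 266 for the 8 without Fn1, which differed by -0.17 to 0.16. Of 8 ciliated and club cell markers 2 were lower, and the club cell gene Scgb1a1 read 12.65 with AdGFP and 12.68 with AdHIF1a. The part of these other cells in the results above was not tested. Hif1a fell by 0.48 ± 0.08 on its rat probe set (adjusted p = 0.0217, lost without rats 2, 3 or 4), which does not check the labels because the labels do not give the species of the transgene.

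The plot of adjusted p under each setting gathers how firmly the 4 genes whose wells did not overlap stood.

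**Figure D4:**
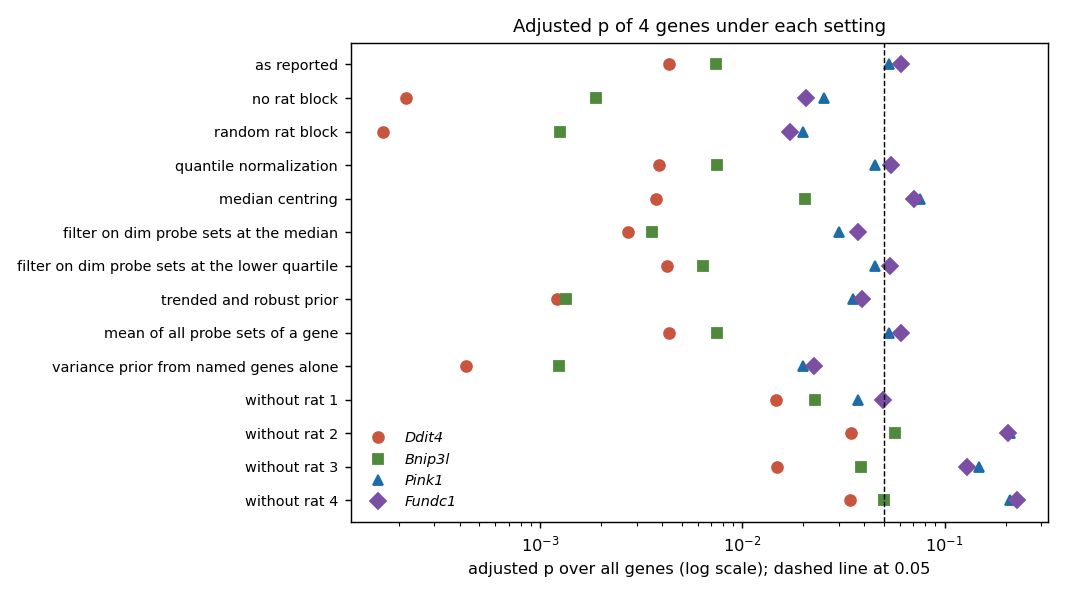
Adjusted p over all genes (horizontal log axis, with a dashed line at 0.05) of Ddit4, Bnip3l, Pink1 and Fundc1 under the reported setting and 13 alternatives. Ddit4 stays below 0.05 throughout, Bnip3l misses it only without rat 2 (0.0567), and Pink1 and Fundc1 lie on both sides of it.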

How the data were processed

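Total RNA of 8 wells was hybridised, labelled with biotin, to Affymetrix arrays. The deposited values are log2 signals for 36685 probe sets, made with Affymetrix Expression Console per the submitters' processing notes; no algorithm, software version or genome build is stated there. That the values are log2 follows from their range (1.42 to 13.57), and array medians lay between 5.00 and 5.20, so no further scaling was applied. The files hold no detection calls or background values, and the number of arrays limits the precision. A common scale hides a rise or fall of all transcripts together.

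The platform annotation named the probe sets (18511 with 1 symbol, 575 with several, 17599 with none), and the gene IDs of 18394 matched RefSeq. The probe set with the highest mean over all arrays stood for a gene. Differences were fitted with limma 3.58.1 in R 4.3.3 (lmFit, eBayes) on a design with a fixed term for each rat, and the variance prior estimated from all probe sets, and p-values (two-sided) were adjusted over the 18166 named genes. The wells are paired in the series' own design text. The deviations of the wells of 1 rat from their group means correlated at 0.18 to 0.26 across genes, against -0.22 to 0.08 between rats (across genes, which are not independent). Because group means were subtracted, positive values within rats push those between rats downwards, so the contrast is partly built in. No arrays were alike (at most 1.95% equal values).

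The members and lists were chosen with earlier results of these data known. Named were all members, in each pathway list the 4 called genes with the smallest adjusted p, and Hif1a, Bnip3, Optn, Map1lc3b, Mtor, Rptor, Rheb and Eif4ebp1; list genes outside this rule were named where 5 or fewer were called in a direction, and also Wipi1, Gabarapl1 and Stx17. For the 3 members with the largest difference, the 3 genes with the nearest 4-rat profile were named. The test was checked on simulated data, in which far fewer genes were changed than were called here. It recovered 76 of 100 genes with a true log2 difference of 1 in size and 91 of 100 with 2, with 1 false call. Smaller differences were not simulated. Alternatives were no block, a random block, quantile normalization, median centring, filters on dim probe sets, a trended robust prior, averaging the probe sets of each gene and omission of each rat; a variance prior from named genes alone was chosen after seeing the data. Protein sequences were not used here, so the comparison of protein sequences planned for Ddit4, Ddit4l and the receptors was not made.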

Additional observations from a re-analysis of the deposited data

Results flagged for a closer look

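The AdGFP well of rat 3 stood apart for Ddit4, with a log2 signal of 10.35 against 9.94 to 10 in the other AdGFP wells. Its gap to the nearest well was 0.854 of the range of the group, above Dixon's critical value at 95% for 4 samples. Of 27 sets of 4 values tested (both viruses and the differences, for 9 genes), this was the 1 flagged, and chance flags about 1 in 20. Without rat 3 the rise of Ddit4 was 1.56, against 1.44 with all rats.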

How the results depend on the processing

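Ddit4 kept its direction and call in all 13 alternatives (1.33 to 1.56), and Bnip3l in 12 of 13 (0.59 to 0.69; 0.66 to 0.69 leaving out each rat), losing its call without rat 2 (0.67). Fundc1 and Pink1 kept their direction. Fundc1 (-0.57) and Pink1 (-0.48) passed the threshold without the replicate block, with a random replicate block, with the filter at the median, with the trended prior and with the prior from named genes alone, so that 2 genes of the set were called lower there. Over all genes, 1672, 1809, 1863, 1760 and 2098 were called lower in these 5 fits, in this order, against 1411 as reported. The filter at the median left 11330 genes to test, the other fits 18166. Pink1 also passed with quantile normalization (-0.51) and the filter at the lower quartile (-0.48), giving 1 lower gene. There 1475 of 18166 and 1576 of 15335 genes were called lower. Leaving out each rat gave 0 to 2 genes called lower and 1 to 2 called higher, with -0.70 to -0.45 for Fundc1 and -0.58 to -0.40 for Pink1, both called without rat 1. Median centring, which moved the median difference of all genes to -0.09, turned Tsc1 (-0.028) and Rptor (-0.03) negative, because it shifts every gene by the same amount, -0.08. It gave 635 higher and 1324 lower genes in all, and 2 called mitophagy, 4 autophagy and 3 energy and amino acid genes. Called mTOR complex genes numbered 8 with the filter at the median, 7 with the trended prior and 8 with the prior from named genes alone. Called energy and amino acid genes numbered 9 with the trended prior and 8 with the prior from named genes alone. More genes were called throughout the series in these fits. With the filter at the median, the trended prior and the prior from named genes alone, 1346, 1297 and 1576 genes were called higher, against 1032 as reported. Their lower counts are given above. Without each rat in turn the lists gave 2 to 3 mitophagy, 0 to 6 autophagy, 1 to 5 mTOR complex and 2 to 5 energy and amino acid genes, and 315 to 775 higher and 246 to 1231 lower genes in all; fewer rats leave fewer degrees of freedom. Of the other named genes, Depdc5 also lost its call with quantile normalization and 8 list genes with median centring.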

Other observations

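The genes whose differences in rats 1 to 4 lay nearest to those of Ddit4, by root mean square distance over the 4 rats, were Pla2g12a, a secreted phospholipase (distance 0.08), Higd1a, a mitochondrial inner membrane protein (0.09), and Slc25a32, a mitochondrial carrier (0.12). They shared its order of rats 1, 2 and 3, with 1.74, 1.43, 1.06 and 1.64 for Pla2g12a and 1.68, 1.28, 1.04 and 1.55 for Higd1a. Nearest to Bnip3l were Glmn, which encodes glomulin (0.04), the histone demethylase gene Kdm5b (0.04) and Ercc1, a subunit of a DNA repair nuclease (0.05), which differed by 0.65 to 0.75, 0.58 to 0.73 and 0.65 to 0.76 over the 4 rats. Nearest to Fundc1 were Kank2 (0.04), Trim54 (0.05) and Ano10 (0.06), which also had their smallest differences in rat 1 (-0.23, -0.28 and -0.14) and their largest in rat 2 (-0.89, -0.98 and -0.94). The genes were picked for nearness to these profiles, so a like order of rats follows from the choice and is no separate result. The profiles come from the same arrays and rest on 4 rats, so they are a description of these wells.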
